A study of Homo sapiens with 6 samples.

Results

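The genes described here are 10 that encode feedback inhibitors of mitogen-activated protein (MAP) kinases: 7 dual-specificity phosphatases (DUSP1, DUSP2, DUSP4, DUSP5, DUSP6, DUSP10 and DUSP16), the Sprouty genes SPRY1 and SPRY2, and SPRED1. They were chosen by name, with earlier results of these data known, and each was measured by 1 probe set among the 17687 genes tested. The samples were Jurkat cells, an established human line from a T cell acute lymphoblastic leukaemia, in medium with serum. RNA of 3 samples came from cells held in suspension for 3 h. The other 3 samples, called 3D, were cells embedded for the same 3 h in bovine type I collagen (1.7 mg/mL). All samples were this 1 line with no added stimulus or genetic change named. The gel also held bicarbonate and Hepes buffer, which the labels do not list for suspension, so matrix and buffer cannot be told apart. The samples of a group are labelled biological replicates 1 to 3, without saying what separated them, so p-values measure the spread between these samples.

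MAP kinases are switched on by phosphorylation of a threonine and a tyrosine in their activation loop. Dual-specificity phosphatases remove both phosphates, some in the nucleus and some in the cytoplasm, with preferences for ERK, p38 or JNK. Sprouty and SPRED proteins act further up, between receptors and the kinase RAF. Transcription of many of these genes follows ERK activity itself, so their RNA is widely used as a readout of the pathway. In T cells the pathway is engaged through the antigen receptor and RAS.

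On the deposited log2 scale the median of an array was 5.55 to 5.64, and arrays correlated over genes at 0.971 to 0.991. All 13 T cell markers had a mean at or above 6, a limit used here to set dim probe sets apart, and so did 5 of 31 markers of 6 other cell types. Of the T cell markers 9 were lower in 3D and 4 higher, beside 52.6% lower over all genes. None of the 13 passed the test, against 0% of all genes. The marker of smallest p was CD247, the zeta chain of the T cell receptor complex. Its log2 difference was -0.52 ± 0.15 (limma, adjusted p = 0.380). The part of such differences in the values below was not tested. Detection flags were not used, so a value near the floor of an array cannot be told from no expression.

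The sequence before the start sites was searched for motifs of factors that act on early response genes. RefSeq (GRCh38.p14) entries were found for 8 of the 10 genes, with 12 start sites, and the 250 bases before each were searched on both strands. The motifs were the cyclic AMP response element TGACGTCA, its shorter core TGACG, which overlaps it, the AP-1 site TGAGTCA, the ETS site CCGGAAG, the TATA box TATAAA and the CArG box of serum response factor. Shown here are DUSP1, the member with the most matches, and DUSP2, DUSP6 and DUSP16, the 3 members with the smallest p-values in the comparison. Each runs 5′ to 3′ on the minus strand, with motif matches in capitals.
DUSP1 chr5:172771196-172771445: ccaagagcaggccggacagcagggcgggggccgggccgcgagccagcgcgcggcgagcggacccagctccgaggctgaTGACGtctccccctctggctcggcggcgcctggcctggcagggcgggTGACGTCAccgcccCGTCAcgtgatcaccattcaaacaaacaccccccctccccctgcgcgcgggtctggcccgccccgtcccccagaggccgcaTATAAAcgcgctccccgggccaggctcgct
DUSP2 chr2:96145441-96145690: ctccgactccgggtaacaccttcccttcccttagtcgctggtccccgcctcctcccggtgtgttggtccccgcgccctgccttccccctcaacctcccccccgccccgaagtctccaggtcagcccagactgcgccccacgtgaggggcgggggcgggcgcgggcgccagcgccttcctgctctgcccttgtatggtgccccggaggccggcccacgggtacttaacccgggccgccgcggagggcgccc
DUSP6 chr12:89352502-89352751: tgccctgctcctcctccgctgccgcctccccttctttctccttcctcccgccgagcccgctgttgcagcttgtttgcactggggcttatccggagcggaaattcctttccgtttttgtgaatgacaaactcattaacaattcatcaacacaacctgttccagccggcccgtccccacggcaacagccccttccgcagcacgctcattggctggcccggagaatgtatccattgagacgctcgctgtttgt
DUSP16 chr12:12562864-12563113: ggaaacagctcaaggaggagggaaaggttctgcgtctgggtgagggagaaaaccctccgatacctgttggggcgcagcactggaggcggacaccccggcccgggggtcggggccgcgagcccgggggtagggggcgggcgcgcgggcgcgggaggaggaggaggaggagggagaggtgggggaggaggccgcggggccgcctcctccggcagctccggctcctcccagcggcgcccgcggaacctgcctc
The DUSP1 stretch held TGACGTCA once, from 125 to 118 bases before the start, and TATAAA from 30 to 25 bases before it. The core TGACG occurred 4 times there, 2 of them inside TGACGTCA on opposite strands. The stretches of DUSP2, DUSP6 and DUSP16 held none of the motifs. TGACGTCA was found in 1.64% of 34788 distinct RefSeq stretches of this length, TGACG in 21.2% and TATAAA in 10.8%. Among the other members, TGACG was found once before the most upstream SPRY2 start and CCGGAAG once before 1 of 2 SPRY1 starts (8.5% of all stretches). AP-1 and CArG matches, present in 4.21% and 1.17% of all stretches, were found before none of the 12 member starts. A match is a run of letters and not a measured site, and these arrays hold no measure of binding.

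The comparison asked whether the RNA of these inhibitors differed after 3 h in collagen. No member passed limma at an adjusted p under 0.05, against 0% of all 17687 genes. DUSP6 and DUSP2 measured lower in 3D and DUSP16 higher, each by 1.34-fold to 1.46-fold. The Sprouty and SPRED genes differed by at most 0.063 log2. At an unadjusted p under 0.05 there was 1 member, DUSP6, against 9.87% of all genes, or 1745. The groups did not overlap for 0 of the 10 members, against 16.3% of all genes. With the replicate number as a block, again 0 members passed, against 0.0905% of all genes, which are 16 of them; at an unadjusted p under 0.05 with the block there were 3 (DUSP16, DUSP6 and DUSP2), against 17.4%. Of the members 5 were lower in 3D and 5 higher, beside 52.6% lower and 47.4% higher over all genes. Their median log2 difference was -0.0064, beside -0.016 over all genes, and ran from -0.065 without 3D replicate 3 to 0.094 without 3D replicate 1. As this is bulk RNA, fewer cells expressing a gene and less RNA per cell cannot be told apart.

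**Figure D1:**
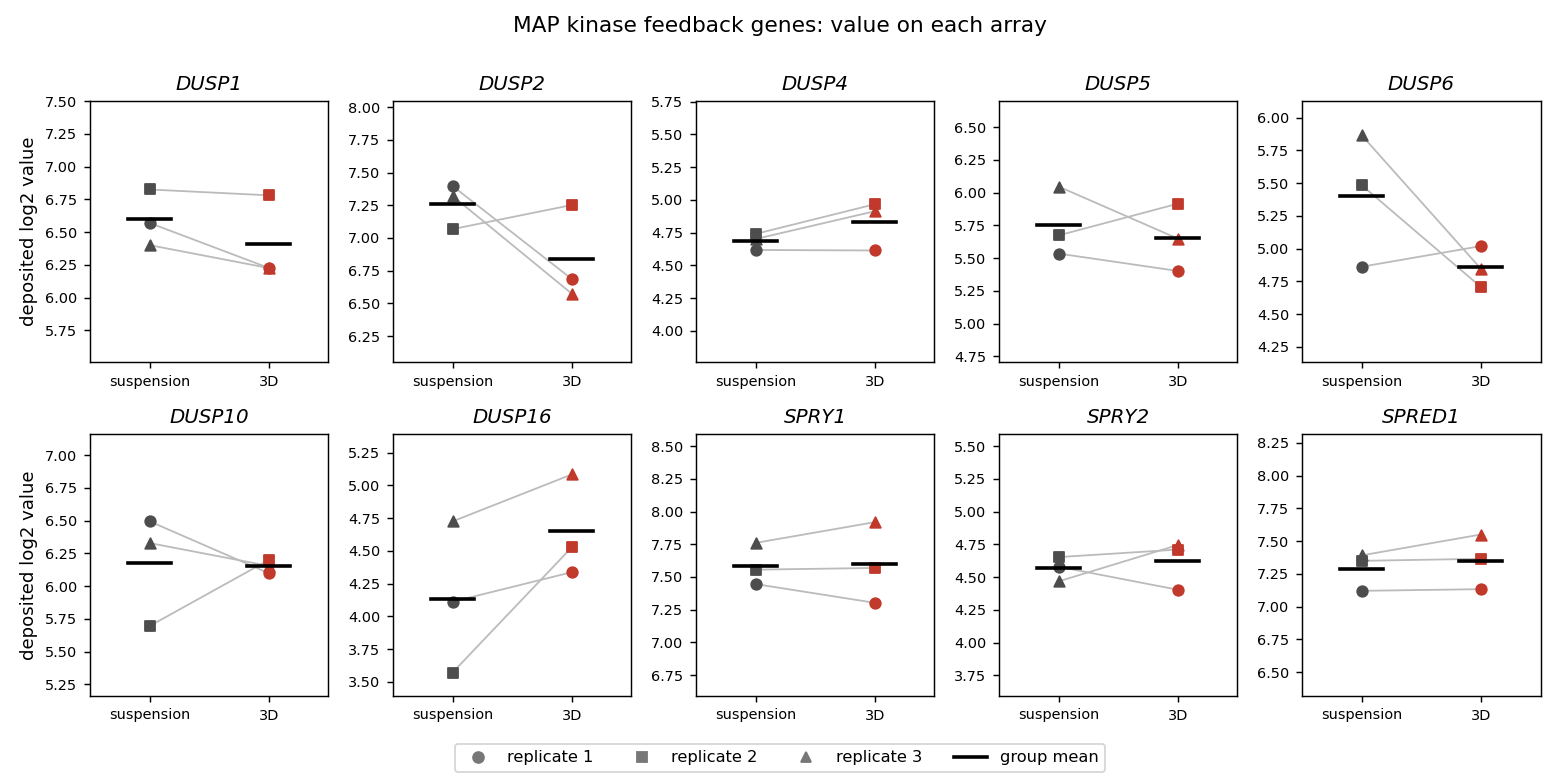
Deposited log2 value of each of the 10 genes on the 6 arrays, in suspension (grey) and 3D (red), with markers for replicates 1 to 3, thin lines joining equal replicate numbers and bars for group means. Each vertical axis spans the same 2 log2 units around the gene's own mean, and the groups overlap in every panel.

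DUSP6 encodes a cytoplasmic phosphatase selective for ERK, and its RNA is a common readout of ERK activity. Its values for replicates 1 to 3 (probe set TC1200011470.hg.1) were 4.86, 5.49 and 5.87 in suspension and 5.02, 4.71 and 4.85 in 3D. The 3D arrays lay close together at the low end, while suspension spread over a whole log2 unit and its replicate 1 fell among the 3D values. The means were 5.40 ± 0.51 (SD, n = 3) and, for 3D, 4.86 ± 0.16 (SD, n = 3), a log2 difference of -0.55 ± 0.24 (SE), or 1.46-fold lower in 3D. The 95% interval of the difference ran from -1.07 to -0.024. Limma gave an unadjusted p of 0.0418 and an adjusted p of 0.498, so the difference did not pass, and the same held with the replicate block (adjusted p = 0.214). By replicate number the differences were 0.16, -0.78 and -1.02, so replicate 1 differed in sign from the other two. Without suspension replicate 1 the difference was -0.82 (limma, adjusted p = 0.318), and without suspension replicate 3 it was -0.32 (adjusted p = 0.668).

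The members that act in the nucleus are DUSP1, DUSP2, DUSP4 and DUSP5, classed as inducible early response phosphatases. DUSP2, also called PAC-1, was first known from activated T cells and acts on ERK and p38. Its values (TC0200013511.hg.1) were 7.40, 7.07 and 7.32 in suspension and 6.69, 7.25 and 6.57 in 3D. In 3D, replicate 2 measured within the suspension values and the other two below all of them. Suspension averaged 7.26 ± 0.17 (SD, n = 3) and 3D 6.84 ± 0.36 (SD, n = 3), a log2 difference of -0.42 ± 0.20 (SE) with a 95% interval from -0.87 to 0.024. Limma gave an adjusted p of 0.519, and 0.281 with the block. Leaving out 3D replicate 2 moved the difference to -0.63 (adjusted p = 0.634), while leaving out 3D replicate 3 moved it to -0.29 (adjusted p = 0.887).

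DUSP1 encodes a phosphatase of p38, JNK and ERK and is a classic immediate early gene. Its values (TC0500012842.hg.1) were 6.57, 6.83 and 6.40 in suspension and 6.23, 6.78 and 6.23 in 3D. Replicate 2 was the highest array of each group, and 3D replicates 1 and 3 stood below every suspension array. The log2 difference was -0.19 ± 0.20 (SE), with a 95% interval from -0.63 to 0.25 (limma, adjusted p = 0.769). DUSP1 was the 1 member lower in 3D in all 3 replicate numbers, at -0.34, -0.045 and -0.18, as were 19.8% of all genes. The group difference was -0.37 without 3D replicate 2 and -0.075 without suspension replicate 2.

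DUSP5, a nuclear phosphatase selective for ERK, measured 5.53, 5.67 and 6.05 in suspension and 5.40, 5.92 and 5.65 in 3D (TC1000008891.hg.1). The groups lay over each other, and the difference was -0.096 ± 0.20 (SE) with a 95% interval from -0.53 to 0.33. DUSP4, a relative of DUSP1 that acts on ERK and JNK, measured 4.62, 4.74 and 4.70 in suspension and 4.61, 4.97 and 4.91 in 3D (TC0800010002.hg.1). Its 3D replicates 2 and 3 stood above all suspension arrays, while 3D replicate 1 was level with the lowest of them. The difference of DUSP4 was 0.15 ± 0.16 (SE), with a 95% interval from -0.21 to 0.50. It was 0.077 without 3D replicate 2 and 0.25 without 3D replicate 1. Adjusted p-values (limma) were 0.890 for DUSP5 and 0.785 for DUSP4.

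DUSP10 and DUSP16 encode phosphatases that prefer the stress kinases p38 and JNK. DUSP16 (TC1200009967.hg.1) measured 4.11, 3.57 and 4.73 in suspension and 4.34, 4.53 and 5.08 in 3D. Its 3D value was the higher one in all 3 replicate numbers, by 0.23, 0.96 and 0.36, as were SPRED1 and 20.3% of all genes. The groups still overlapped, because suspension replicate 3 was higher than 3D replicates 1 and 2. Suspension averaged 4.14 ± 0.58 (SD, n = 3) and 3D 4.65 ± 0.39 (SD, n = 3), a log2 difference of 0.51 ± 0.28 (SE), or 1.43-fold, with a 95% interval from -0.11 to 1.14. Limma gave an adjusted p of 0.563, and 0.169 with the block. The value moved most with the suspension arrays, to 0.23 without replicate 2 (adjusted p = 0.792) and to 0.81 without replicate 3 (adjusted p = 0.462). Without 3D replicate 3 it was 0.30 (adjusted p = 0.922).

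DUSP10 (TC0100017420.hg.1) measured 6.49, 5.69 and 6.33 in suspension and 6.10, 6.20 and 6.15 in 3D. The 3D arrays lay close together, while suspension replicate 2 lay well below replicates 1 and 3. The log2 difference was -0.022 ± 0.21 (SE), with a 95% interval from -0.48 to 0.44 (limma, adjusted p = 0.982). By replicate number the differences of DUSP10 were -0.40, 0.50 and -0.17, with replicate 2 opposite in sign to the other two.

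**Figure D2:**
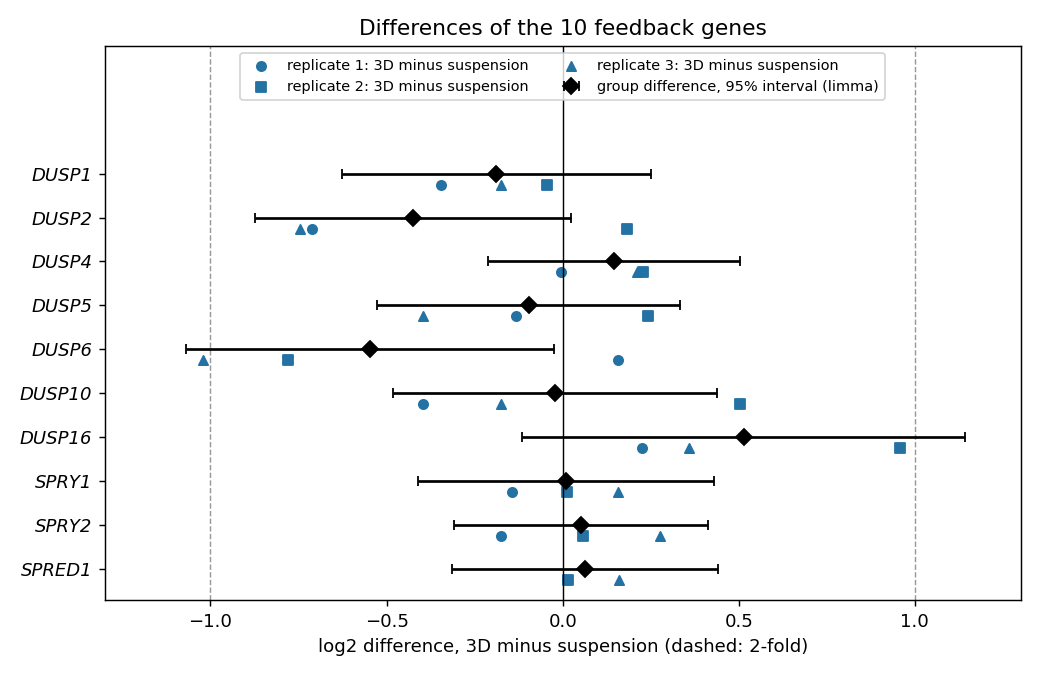
Log2 difference, 3D minus suspension, of each gene with its 95% interval from limma (black) and the difference within each replicate number (blue); dashed lines mark a 2-fold difference. In this fit, without the replicate block, the interval of DUSP6 alone leaves out 0, as for 9.87% of all genes. The intervals of DUSP6 and DUSP16 reach beyond 2-fold. With the block, DUSP2, DUSP6 and DUSP16 each had an unadjusted limma p under 0.05, against 17.4% of all genes. None passed after adjustment.

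The Sprouty and SPRED proteins inhibit the pathway at the level of RAS and RAF, and SPRED1 brings neurofibromin, a RAS inactivator, to the membrane. SPRY1 (TC0400008628.hg.1) measured 7.45, 7.56 and 7.76 in suspension and 7.30, 7.57 and 7.92 in 3D. SPRED1 (TC1500006896.hg.1) measured 7.12, 7.35 and 7.39 in suspension and 7.13, 7.36 and 7.55 in 3D. In both genes and in both groups, replicate 1 was lowest and replicate 3 highest, and 3D replicate 3 was the highest of the 6 arrays. The differences were 0.0094 ± 0.19 (SE) for SPRY1, with a 95% interval from -0.41 to 0.43, and 0.063 ± 0.17 (SE) for SPRED1, from -0.32 to 0.44. SPRY2 (TC1300009348.hg.1) measured 4.58, 4.65 and 4.47 in suspension and 4.40, 4.71 and 4.75 in 3D, a difference of 0.053 ± 0.16 (SE) with an interval from -0.31 to 0.41. Adjusted p-values (limma) of the 3 genes were 0.992, 0.919 and 0.930. Each interval reached at most 0.44 from 0 in size, so a 2-fold difference of these 3 probe sets lay outside all 3. The SPRY2 mean of 4.59 lay under the limit of 6. Detection could not be judged there and RMA shrinks differences of dim probe sets, so its interval bounds the measured values only.

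Over the 10 members the 95% intervals were 0.36 to 0.63 log2 wide on each side. For 8 of them the interval lay within 2-fold either way, and 9 of 10 held 0. Over all genes, 9.87% had an interval without 0, at an unadjusted limma p under 0.05. These intervals come from the fit without the replicate block. With the block the SE of DUSP16 was 0.17, against 0.28 without it. Unadjusted p-values with the block (limma) were 0.0113 for DUSP16, 0.0215 for DUSP6 and 0.0466 for DUSP2, and none passed after adjustment. In that fit 17.4% of all genes had an unadjusted limma p under 0.05. By replicate number, members did not move as one. In replicate 1, 3 members were higher in 3D and 7 lower, in replicate 2, 8 were higher and 2 lower, and in replicate 3, 5 and 5. Over all genes replicate 2 also had the highest share, with 45.4%, 56.7% and 45.9% higher in 3D in replicates 1, 2 and 3. The median difference of the members was -0.14, 0.12 and -0.0081 in these replicates, beside -0.039, 0.054 and -0.035 over all genes. The mean of 5 members, DUSP4, DUSP5, DUSP6, DUSP16 and SPRY2, lay under 6, so the members with the largest differences on each side are both among the dim ones.

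Likeness between members was described by Pearson's r over the 6 arrays, which share replicate numbers in pairs. SPRY1 and SPRED1 were most alike (r = 0.93), followed by DUSP4 with SPRY2 (0.82) and DUSP4 with SPRED1 (0.78). The pair furthest apart was DUSP1 and DUSP16 (r = -0.66). DUSP6 went with none of the others closely, its highest r being 0.46 with DUSP5, and DUSP1 and DUSP2 reached 0.64. Of 45 pairs 29 had a positive r and 16 a negative one, with a median of 0.20. Among the 8342 genes with a mean at or above 6, those closest to DUSP6 were CCDC127 (r = 0.99), NT5M (0.96) and ZNF32 (0.96). The closest to DUSP2 were CYS1 (0.99), IDH2 and RAB11B (both 0.98), and the closest to DUSP16 were PPP6R3, SMIM15 and MRFAP1 (all 0.99). With 6 arrays and 8342 genes, an r this close to 1 is a description of these arrays only.

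**Figure D3:**
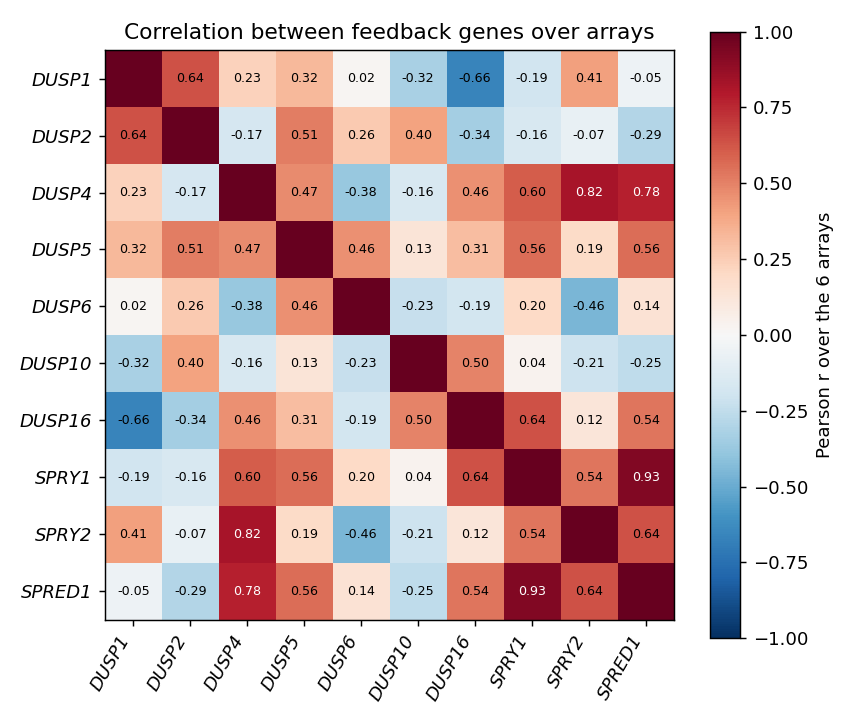
Pearson's r between the deposited log2 values of each pair of the 10 genes over the 6 arrays, from -1 (blue) to 1 (red). SPRY1, SPRY2, SPRED1 and DUSP4 have positive values with each other, from 0.54 to 0.93, while DUSP6 has none above 0.46.

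The other genes of the pathway were taken from 5 lists with 95 measured genes. Of these 0 passed limma in the comparison, against 0% of all genes. Further listed genes were not analysed here. At an unadjusted p under 0.05 there were 17 of the 95, 8 higher and 9 lower in 3D, and the groups did not overlap for 23. These are 17.9% and 24.2% of the 95, beside 9.87% and 16.3% of all genes. The lists were chosen with earlier results of these data known. They also hold a larger share of bright genes, 64 of 95 at a mean of 6 or more, against 8342 of 17687. The shares are thus not a like comparison, and their difference was not tested. With the replicate block 0 of the 95 passed, against 0.0905% of all genes. With the block and only genes of mean 6 or more, 11 of the 64 left passed, or 17.2%, beside 14.4% of all genes in that fit. Of the genes named below, these include DUSP14, NF1, RPS6KA1, RASA2, MAP3K1, MAPK8, MAP3K4 and MYC.

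The 19 genes measured in the list of other phosphatases and related proteins had a median log2 difference of -0.060, with 11 lower and 8 higher. That median turned to 0.022 without suspension replicate 1 and was -0.13 without suspension replicate 2. DUSP14, an atypical phosphatase that restrains T cell receptor signalling, averaged 7.27 ± 0.13 (SD, n = 3) on the suspension arrays and 6.74 ± 0.22 (SD, n = 3) on the 3D arrays, with no overlap. Its log2 difference was -0.53 ± 0.17 (SE) (limma, adjusted p = 0.399), with -0.49, -0.37 and -0.75 by replicate number. DUSP7, a cytoplasmic ERK phosphatase close to DUSP6, had -0.40 ± 0.18 (adjusted p = 0.505), also without overlap. STYX, a pseudophosphatase that binds ERK in the nucleus, had 0.39 ± 0.19 (adjusted p = 0.532), and its groups overlapped. The 13 relatives and partners of Sprouty and SPRED had a median of -0.15, with 8 lower and 5 higher. NF1, the neurofibromin gene, averaged 6.98 ± 0.49 (SD, n = 3) on the suspension arrays and 7.70 ± 0.15 (SD, n = 3) on the 3D arrays. Its difference was 0.72 ± 0.23 (SE), without overlap (adjusted p = 0.399), and suspension replicate 1 was its lowest array, so replicate 1 had the largest of 1.24, 0.51 and 0.42. PEBP1, an inhibitor of RAF, had -0.34 ± 0.19, and LZTR1, an adaptor for degradation of RAS proteins, -0.38 ± 0.22 (adjusted p = 0.563 and 0.582).

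For 18 genes of the cascade from RAS to ERK the median log2 difference was -0.062, with 10 lower and 8 higher, and it turned to 0.031 without suspension replicate 3. SOS2, an exchange factor that loads RAS with GTP, had 0.53 ± 0.17 (SE) with no overlap between groups (limma, adjusted p = 0.399). RPS6KA1, a kinase downstream of ERK, had -0.51 ± 0.19, also without overlap (adjusted p = 0.433), and RASA2, a RAS inactivator, 0.58 ± 0.23 (adjusted p = 0.469). For 21 genes of the p38 and JNK cascades it was 0.049, with 10 lower and 11 higher, and it turned to -0.020 without 3D replicate 2. MAPK8, the JNK1 gene, averaged 8.47 ± 0.14 (SD, n = 3) on the suspension arrays and 8.96 ± 0.14 (SD, n = 3) on the 3D arrays. The log2 difference was 0.49 ± 0.16 (SE), and 0.55, 0.55 and 0.37 by replicate number. MAP3K1 had 0.57 ± 0.18 and MAP3K4 0.45 ± 0.17, both kinases at the top of these cascades. Groups did not overlap for any of the 3 genes, and adjusted p-values (limma) were 0.403, 0.399 and 0.439. For 24 targets and effectors of ERK signalling the median was -0.17, with 15 lower and 9 higher, and it was -0.025 without 3D replicate 1. At an unadjusted limma p under 0.05 were 4 of the 24, all lower, against 9.87% of all genes in either direction and 3.97% lower. Groups did not overlap for 4 of the 24, or 16.7%, against 16.3% of all genes. This list too was chosen with earlier results known. The 3 of smallest p were JUNB at -0.77 ± 0.17, MYC at -0.55 ± 0.16 and FOSB at -0.38 ± 0.15, all transcription factor genes (adjusted p = 0.341, 0.385 and 0.467). With each array left out in turn, limma again called 0 of the 95, and also 0 of all 17687 genes.

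**Figure D4:**
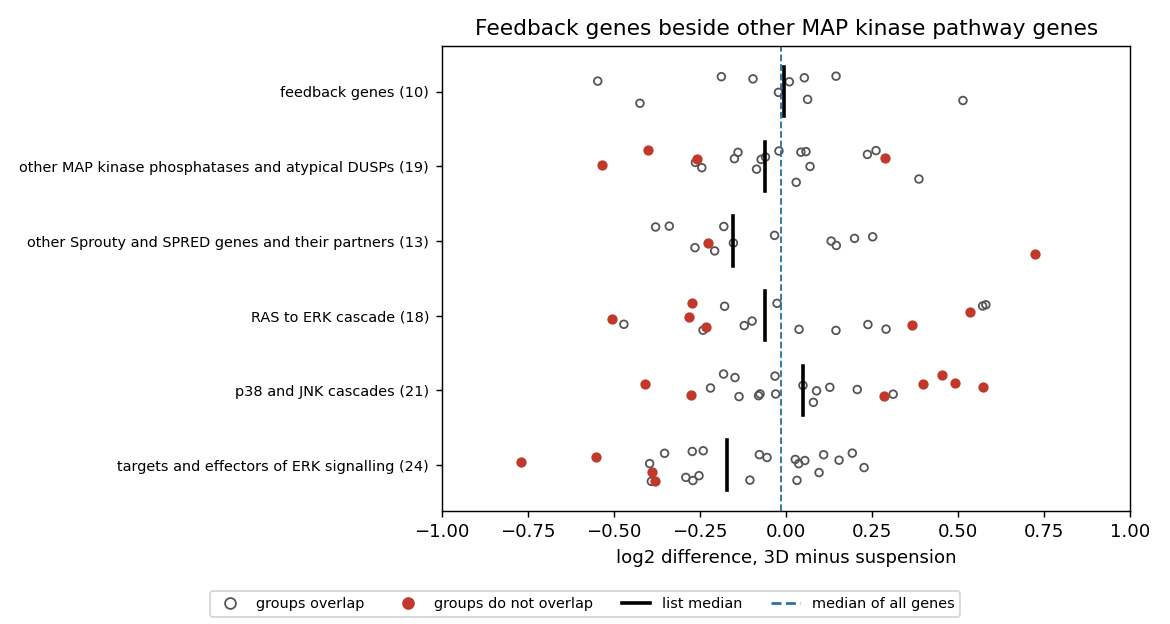
Log2 difference, 3D minus suspension, of each measured gene in the feedback group and in the 5 other pathway lists, with the number of genes in parentheses; filled red points mark genes whose groups do not overlap, black bars list medians and the dashed line the median of all genes. The feedback genes have no filled point, and list medians run from -0.17 for ERK targets to 0.049 for the p38 and JNK cascades; with 1 array left out, -0.025 for the first (without 3D replicate 1) and -0.020 for the second (without 3D replicate 2) were reached.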

How the data were processed

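RNA of 6 Jurkat samples, 3 in suspension and 3 in collagen, was measured on Affymetrix arrays. Per the submitters' processing notes, the authors used RMA and the Transcriptome Analysis Console to make the deposited log2 values, 1 per probe set and array. Versions and build are not given in the sources used here. The RMA method shrinks differences of dim probe sets and removes shifts of the whole transcriptome.

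Of 21448 probe sets, 17709 had 1 gene symbol in the platform's table, 0 several and 3739 none. Of 20 genes with several probe sets, the one with the highest mean was used, giving 17687 genes. Groups came from the sample titles. Groups were compared by lmFit and eBayes of limma 3.58.1 under R 4.3.3. P-values were two-sided and adjusted over all genes by Benjamini-Hochberg, with a threshold of 0.05 and 4 residual and 6.79 prior degrees of freedom. The fit without the replicate block was tested on simulated data with noise independent between arrays. No effect shared by a replicate number was simulated. An exact permutation test of 3 against 3 arrays cannot go below 0.1 and was not used. The number of arrays limits the precision. Alternatives were a replicate block, a mean at or above 6, quantile normalization, median centring, an intensity trend, removal of each array's trend on gene span and neighbours within 500 kb, probe set means, and leaving out arrays.

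Replicate numbers are shared by the groups. Deviations from the group means correlated between arrays of number 1, 2 and 3 at 0.521, 0.120 and 0.337. All are over 0.1, the limit for treating numbers as pairs, so the block is read as a pairing where it is used. It is an alternative only. The main fit has no block, because the labels do not say what a replicate number marks. Suspension 2 correlated better with 3D 3 (0.230), and 3D 2 better with suspension 3 (0.149), so the basis for pairing is weak for number 2.

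The members and lists were chosen with earlier results of these data known. All 10 members are named, with up to 3 genes of smallest p from each list and the 3 genes most like each of the 3 members of smallest p. Promoters are RefSeq's (GRCh38.p14); their coordinates are RefSeq's and not the arrays'. Figures used matplotlib 3.10.9 and Python 3.11.15.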

Additional observations from a re-analysis of the deposited data

How the results depend on the processing

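No member passed limma under any of the 18 alternatives; the smallest adjusted p of a member, 0.0652 for DUSP2, came with the replicate block without pair 2. DUSP1, DUSP2, DUSP4, DUSP6 and DUSP16 kept their direction in every alternative that measured them. The other 5 lay near 0 and changed sign in 21 of their 86 values. Both statements include alternatives that leave a member's difference unchanged, where its sign could not turn. These are the replicate block on all arrays, the mean limit, the intensity trend and probe set means. The block also repeated the values with the span and neighbour trend removed. SPRY1 was -0.037 after quantile normalization and -0.017 with the span and neighbour trend removed, where SPRED1 was -0.035, with and without the replicate block. With 1 array left out, the log2 difference ran from -0.23 to 0.051 for DUSP5, from -0.26 to 0.14 for DUSP10, from -0.15 to 0.16 for SPRY1, from -0.0097 to 0.16 for SPRY2 and from -0.038 to 0.17 for SPRED1. With the replicate block and pair 3 left out it was 0.055 for DUSP5, 0.054 for DUSP10, -0.065 for SPRY1 and -0.059 for SPRY2, and DUSP10 was 0.16 without pair 1. The cause was not tested. Over all genes 0 passed without the block, 16 with the replicate block, 22 with the block and the span and neighbour trend removed, and 1199 with the block in genes of mean 6 or more. With 1 array left out 0 passed, and with the block and pair 1, 2 or 3 left out 21, 150 and 36 passed. In genes of mean 6 or more with the block, 11 of the 64 pathway genes measured passed (17.2%, beside 14.4% of all genes there): NF1, LAMTOR3, RASA2, MAP3K1, MAPK8 and MAP3K4 higher, and MYC, DUSP14, RPS6KA1, ARAF and IER2 lower; these were named after their values were seen. In that setting the smallest adjusted p of a member was 0.0690, for DUSP2. Over the 18 alternatives the median of the ERK targets ran from -0.25 to -0.025 and that of the Sprouty and SPRED partners from -0.20 to -0.021. Medians changed sign for the other phosphatases (-0.13 to 0.040), RAS to ERK (-0.14 to 0.073), p38 and JNK (-0.020 to 0.088) and the members (-0.13 to 0.094). For the 5 dim members, detection could not be judged.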
